A study of Mus musculus with 59 samples.

Results

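The amino acid transporter genes described here were measured in embryoid bodies that had been exposed to mouse serum, and are Slc7a1, Slc7a3, Slc7a5, Slc7a11, Slc3a2, Slc1a4, Slc1a5, Slc38a1, Slc38a2 and Slc6a9. They are 10 of the 19613 genes in the deposited table and were found there by symbol. The genes were chosen by the measured difference between the sera and by their levels in the runs, so those values are given as a description with no test. The embryoid bodies were derived from mouse HBG3 HB9 embryonic stem cells, contained spinal motor neurons among other cells, and were kept for 24 h with 5% serum. Serum came from male mice that were hemizygous for the mutant human SOD1 (G93A) transgene and had no symptoms yet (carrier serum, 29 arrays), or from littermates without the transgene (non-carrier serum, 30 arrays). All donors were F1 progeny of C57BL/6 and SJL mice, and 53 arrays are labelled 9 weeks and 6 are labelled 10 weeks. The paper describes the same kind of cells for all arrays, whereas the titles read motorneuron, HB9MNs or HB9EBs.

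The labels give no batch, and arrays were sorted by the name or the block of numbers in their titles into 9 runs. These are called motorneuron (4 non-carrier and 3 carrier arrays), HB9MNs (2 and 2), A (3 and 3), B (3 and 3), C (5 and 6), D (4 and 3), E (3 and 3), F (3 and 3) and the 10-week run (3 and 3). Array medians ran from 153.0 to 177.4 intensity units with non-carrier serum and from 151.5 to 182.7 with carrier serum. A single carrier array of run E had the lowest mean correlation with the other arrays of its own run (Pearson's r = 0.979). Levels below are log2 intensities from exon arrays, and a level of one gene is never set against that of another. Whether a change reflects fewer cells of a type or less RNA per cell cannot be told apart in a whole embryoid body.

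Amino acids do not cross the plasma membrane freely and enter cells through carriers of the solute carrier (SLC) families. Slc7a1 and Slc7a3 take up the cationic amino acids arginine, lysine and ornithine. Slc7a5 exchanges large neutral amino acids such as leucine and Slc7a11 exchanges cystine for glutamate, and both are held at the membrane by the heavy chain encoded by Slc3a2. Slc1a4 and Slc1a5 exchange small neutral amino acids, among them alanine, serine and glutamine, Slc38a1 and Slc38a2 take up glutamine and alanine together with sodium, and Slc6a9 takes up glycine. When amino acids run short, the kinase encoded by Eif2ak4 raises translation of the transcription factor ATF4, which binds CEBP-ATF response elements in many genes of amino acid transport and synthesis. Cystine taken up by Slc7a11 supplies cysteine for glutathione.

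The letters of such an element were looked up in the windows around gene starts (250 bases before and 50 after) from RefSeq (build GRCm38.p6). The window table holds 6 of the 10 genes, namely Slc7a1, Slc7a11, Slc3a2, Slc1a4, Slc38a2 and Slc6a9. The motif TGATGNAA, searched on both strands, was found in 2 of these 6, Slc7a11 and Slc1a4, and in both as the narrower TGATGCAA, which lies within the first motif. Among all 27025 genes of the table, 4.51% held TGATGNAA and 1.03% held TGATGCAA. The stretches that hold the matches are shown because Slc7a11 carries the motif in both orientations within a few bases, whereas in Slc1a4 it lies across the start site. Capitals mark the motif, which reads TTGCATCA where it lies on the other strand. The Slc7a11 stretch is chr3:50443614-50443733 on the minus strand and ends at the base before the start. The Slc1a4 stretch is chr11:20332710-20332829 on the minus strand and ends 4 bases into the transcript.
Slc7a11: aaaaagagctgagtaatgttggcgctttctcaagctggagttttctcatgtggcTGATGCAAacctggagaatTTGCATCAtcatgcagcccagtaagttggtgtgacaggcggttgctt
Slc1a4: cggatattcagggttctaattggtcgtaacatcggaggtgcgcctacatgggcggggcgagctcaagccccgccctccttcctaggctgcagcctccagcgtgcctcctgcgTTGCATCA
The motif was also present in 6 of 16 genes of the amino acid deprivation response, which were Asns, Atf3, Chac1, Nupr1, Trib3 and Vldlr, and in 1 of 33 other amino acid transporters in the table, Slc7a7. A match is a description of the letters in these windows and not a binding site, and the other windows merely do not hold these letters.

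All 10 transporters had a lower fitted level with carrier serum, as did 7629 of all 19613 genes. Their median log2 change was -0.26, against 0.02 over all genes. The change came from a limma model that held the run as a block. Slc7a3 and Slc7a11 were the lowest and the next lowest of all genes in that fit, and Slc38a2 changed least of the 10. In the same fit 2.33% of all genes were called at an adjusted p under 0.05, 1.65% lower and 0.683% higher, and 8 of the 10 transporters were among those called lower, all except Slc1a5 and Slc38a2. Since the genes were chosen on this contrast, nothing is read from that count. The count fell to 5 without run B, to 3 without run D, to 4 without run F and to 5 without the 10-week run, and to 0 when the run was left out of the fit. Without run B the fitted change of Slc7a11 was -0.28 and that of Slc7a3 -0.31, in place of -0.46 for each.

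**Figure D1:**
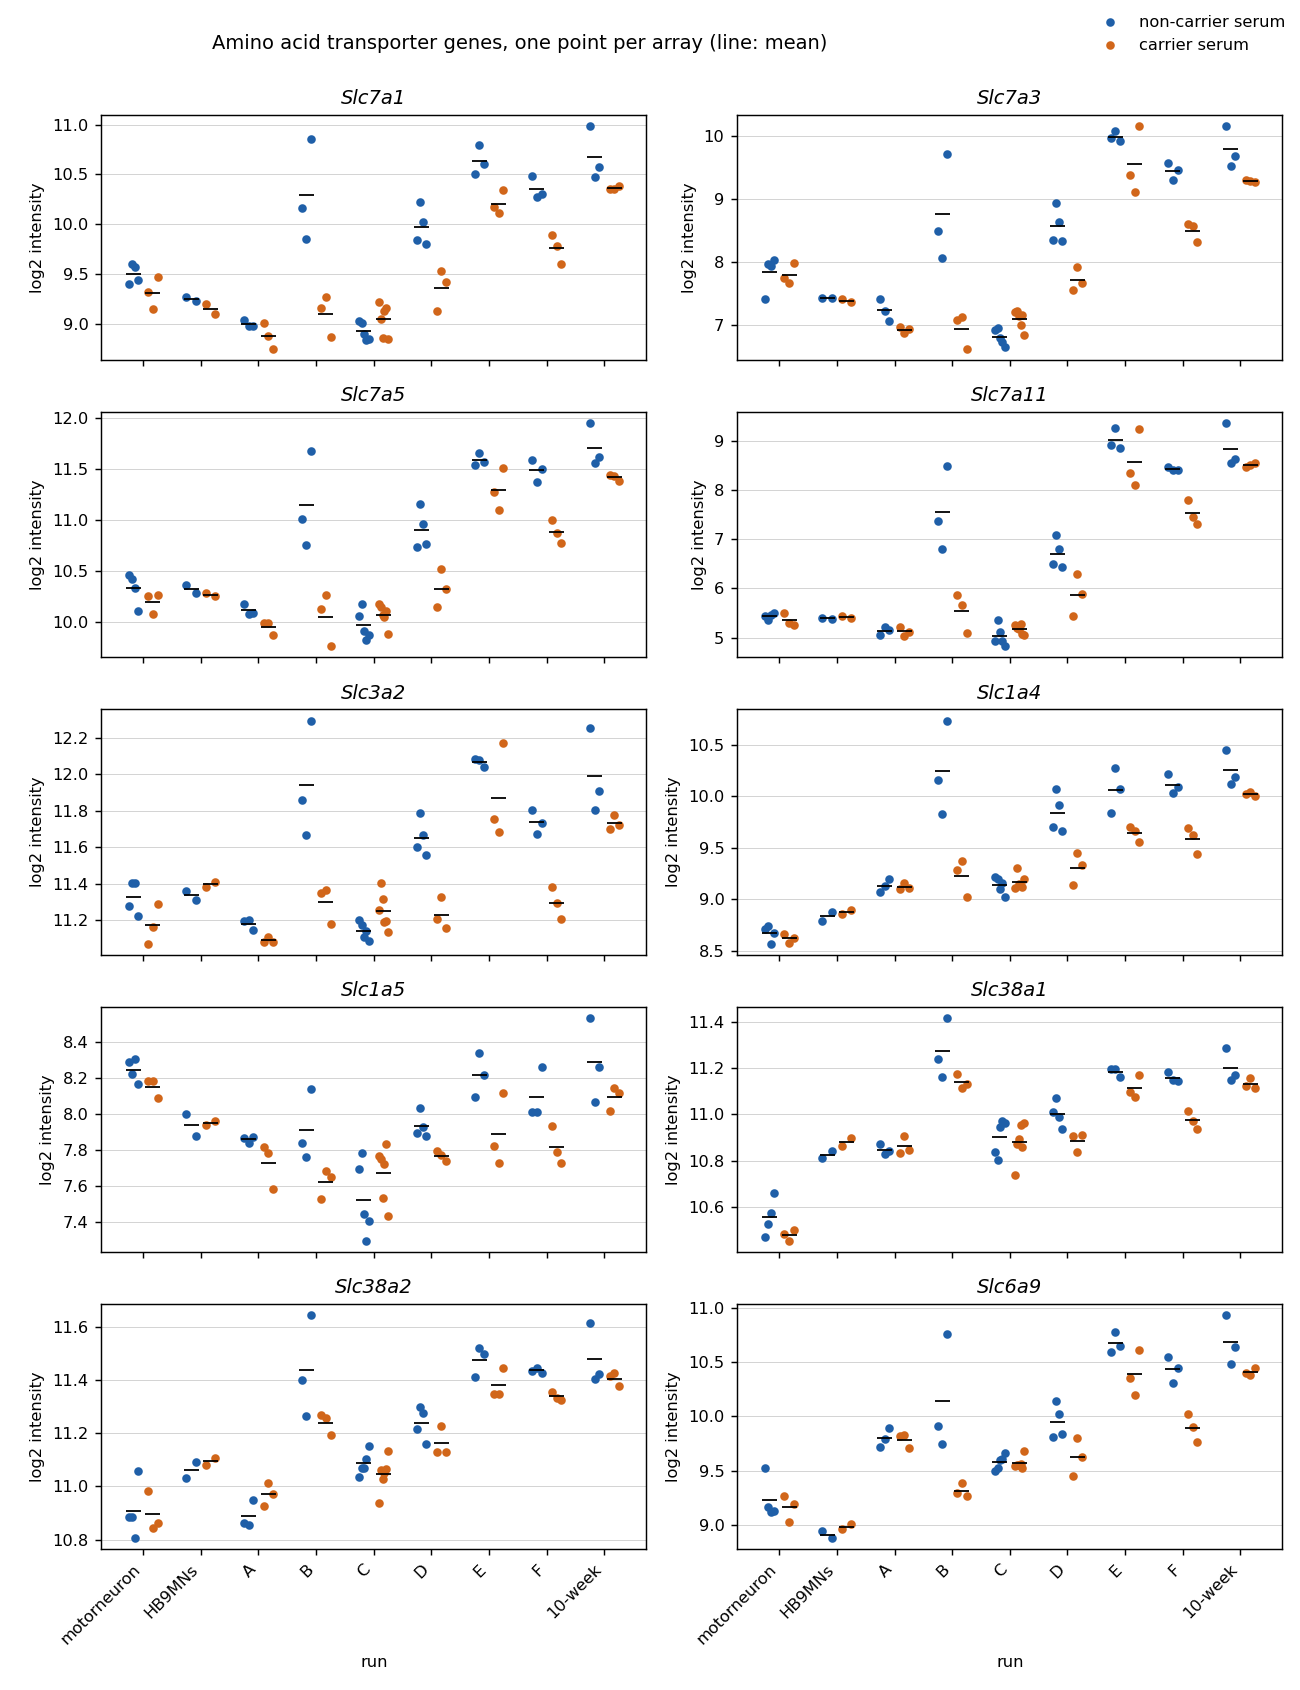
Log2 intensity of the 10 transporter genes (vertical axes) in each of the 9 runs (horizontal axes), with 1 point per array, blue for non-carrier and orange for carrier serum, and a line at the mean of each run and serum. The points differ far more between runs than between the sera, as for Slc7a11 with non-carrier means from 5.03 in run C to 9.02 in run E, and the orange points lie below the blue ones chiefly in runs B, D, F and the 10-week run.

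Slc7a3, the cationic transporter that differed most, ranged from 6.66 to 10.15 with a median of 8.20 over the 30 non-carrier arrays, and from 6.63 to 10.15 with a median of 7.56 over the 29 carrier arrays. The ranges over all runs thus nearly coincide, and the difference shows within runs. In run B the non-carrier arrays read 8.49, 8.06 and 9.71 and the carrier arrays 7.08, 7.14 and 6.63. Every carrier array lay below every non-carrier array there, and the array at 9.71 stood above its group. In run F the non-carrier arrays read 9.57, 9.29 and 9.46 and the carrier arrays 8.60, 8.57 and 8.31. The sera were separated in the same way in runs D, A, HB9MNs and the 10-week run, with differences of -0.84, -0.31, -0.04 and -0.50. HB9MNs has 2 arrays a serum, and 31.7% of all genes were separated this way there. Run C went the other way by 0.29, with overlapping arrays. The fitted change was -0.46 (SE 0.107, n = 59 arrays), or 1.38-fold lower.

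Slc7a1, the widely expressed cationic transporter, ranged from 8.84 to 10.99 (median 9.82) with non-carrier serum and from 8.75 to 10.38 (median 9.22) with carrier serum. In run B the non-carrier arrays read 10.17, 9.85 and 10.86 and the carrier arrays 9.16, 9.27 and 8.87, a difference of -1.19 with no overlap. Carrier arrays lay below all non-carrier arrays in 6 of the 9 runs, B, D, E, F, HB9MNs and the 10-week run. In HB9MNs, with 2 arrays a serum, this held for 31.7% of all genes. The mean was higher with carrier serum in run C alone, by 0.12. With all runs in 1 fit the change was -0.35 (SE 0.067), or 1.27-fold lower.

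Among the exchangers of the heavy chain, Slc7a11 had the widest range of all 10 genes. It lay between 4.82 and 9.36 (median 6.47) with non-carrier serum and between 5.04 and 9.24 (median 5.43) with carrier serum. In run B the non-carrier arrays read 7.36, 6.81 and 8.495 and the carrier arrays 5.88, 5.67 and 5.10. That is a difference of -2.01, or 4.02-fold, the largest of any of these genes in any run. In run F the non-carrier arrays read 8.47, 8.41 and 8.41 and the carrier arrays 7.80, 7.46 and 7.32, and in run D the non-carrier arrays read 6.50, 7.08, 6.81 and 6.44 and the carrier arrays 5.43, 6.30 and 5.88. Neither run had any overlap between the sera, and the differences were -0.90 and -0.84. In the motorneuron, HB9MNs and A runs the sera overlapped and differed by -0.09, 0.02 and -0.01. The fitted change was -0.46 (SE 0.114).

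Slc7a5, the leucine exchanger, ranged from 9.82 to 11.95 (median 10.75) with non-carrier serum and from 9.76 to 11.51 (median 10.26) with carrier serum. In run B the non-carrier arrays read 11.02, 10.76 and 11.68 and the carrier arrays 10.12, 10.27 and 9.76. The sera were separated there by -1.10, and also in runs A, D, E, F and the 10-week run. The model gave a change of -0.32 (SE 0.064), or 1.25-fold lower.

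Slc3a2, whose product pairs with both exchangers, ranged from 11.08 to 12.30 (median 11.58) with non-carrier serum and from 11.07 to 12.17 (median 11.30) with carrier serum. Its run B arrays read 11.86, 11.67 and 12.30 against 11.35, 11.37 and 11.18 with carrier serum, without overlap. Carrier arrays were below all others in 5 runs, A, B, D, F and the 10-week run, and above all others in HB9MNs by 0.06. With 2 arrays a serum, 17.2% of all genes showed every carrier array above in HB9MNs. The fitted change of Slc3a2 was -0.21 (SE 0.045).

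**Figure D2:**
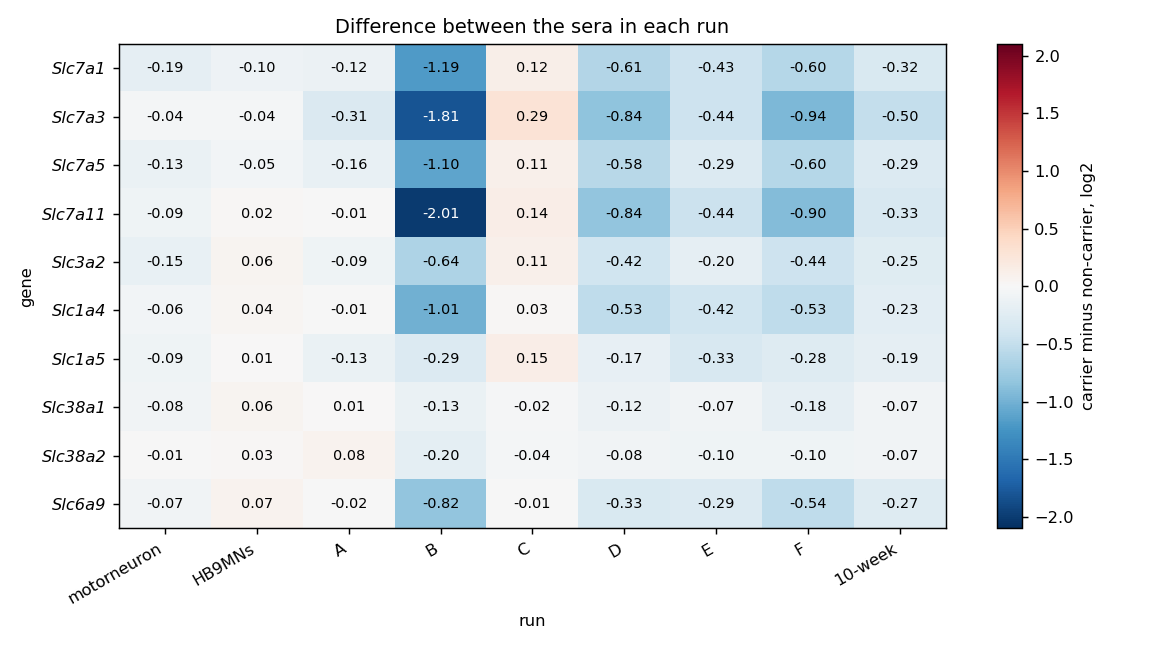
Mean log2 level with carrier serum minus that with non-carrier serum, for each of the 10 transporter genes (rows) in each of the 9 runs (columns), with the value printed in each cell and blue for lower with carrier serum. Run B holds the largest differences for 8 of the 10 genes, with 1 non-carrier array the highest of its group in every gene. The motorneuron, HB9MNs, A and C columns are pale, with values between -0.31 and 0.29.

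Slc1a4, an exchanger of alanine, serine and cysteine, ranged from 8.57 to 10.73 (median 9.68) with non-carrier serum and from 8.57 to 10.04 (median 9.20) with carrier serum. In run B the non-carrier arrays read 10.16, 9.83 and 10.73 and the carrier arrays 9.28, 9.37 and 9.03. The sera did not overlap there, nor in runs D, E, F and the 10-week run, and their difference in run B was -1.01. Its change in the model was -0.28 (SE 0.058).

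Slc1a5, the related glutamine exchanger, changed less. It ranged from 7.30 to 8.53 (median 8.004) with non-carrier serum and from 7.43 to 8.18 (median 7.79) with carrier serum. The difference was -0.29 in run B, where Slc7a11 differed by -2.01, and -0.33 in run E, its largest, where the arrays of the sera overlapped. In run C it was 0.15, and the arrays overlapped there too. The fitted change was -0.13 (SE 0.039), or 1.09-fold lower.

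Slc38a1 and Slc38a2, the sodium-coupled glutamine and alanine carriers, moved least. Slc38a1 ranged from 10.47 to 11.42 (median 10.98) with non-carrier serum and from 10.45 to 11.17 (median 10.91) with carrier serum. Its largest difference was -0.18 in run F, where the non-carrier arrays read 11.18, 11.15 and 11.15 and the carrier arrays 11.01, 10.97 and 10.94. Slc38a2 ranged from 10.81 to 11.64 (median 11.19) and from 10.84 to 11.45 (median 11.13). The arrays of the sera were separated in run F alone for Slc38a2 (difference -0.10), and in runs D and F for Slc38a1, which had every carrier array above by 0.06 in HB9MNs. The fitted changes were -0.07 (SE 0.018) for Slc38a1 and -0.05 (SE 0.021) for Slc38a2. These were the smallest changes and also the smallest standard errors of the 10 genes.

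Slc6a9, the glycine transporter, ranged from 8.88 to 10.93 (median 9.82) with non-carrier serum and from 8.96 to 10.61 (median 9.63) with carrier serum. In run B the non-carrier arrays read 9.91, 9.74 and 10.76 and the carrier arrays 9.30, 9.39 and 9.26. The sera were separated in runs B, D, F and the 10-week run, by -0.82, -0.33, -0.54 and -0.27, and in HB9MNs in the other direction, by 0.07. Over all runs its change was -0.24 (SE 0.055), or 1.18-fold lower.

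Counted over the 9 runs, no transporter was lower with carrier serum in all of them, whereas 1.11% of all genes were. Slc7a1, Slc7a3, Slc7a5 and Slc6a9 were lower in 8 runs and the other 6 genes in 7. Every carrier array lay below every non-carrier array in 3 or more runs for 8 of the 10 genes, all except Slc38a1 and Slc38a2, as for 5.69% of all genes. By run, all 10 genes had a lower mean in the motorneuron run and in runs B, D, E, F and the 10-week run, 8 in run A, and 3 in each of HB9MNs and C. Of all genes, 60.0% had a lower mean with carrier serum in HB9MNs, 50.1% in C and 43.5% in A. In the other runs that share lay between 40.01% (F) and 49.96% (E). In run F the sera were separated for all 10 genes, in D for 9, in B for 8, in the 10-week run for 6, and in the motorneuron run and run C for none. Over all genes, carrier arrays lay below all others for 13.1% in run F, 7.64% in D, 5.26% in B and 8.30% in the 10-week run. That share was 8.07% in A (4 of the 10 genes), 5.08% in E (3 genes) and 31.7% in HB9MNs (2 genes). The median difference of the 10 genes was -0.92 in run B, -0.53 in F, -0.47 in D, -0.31 in E and -0.26 in the 10-week run, while the median over all genes lay between -0.03 and 0.04 in each of the 9 runs.

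In run E, the carrier array that correlated least with its run stood apart from the other 2 carrier arrays in these genes too. Slc7a11 read 9.24 in that array, against 8.36 and 8.11 in the other carrier arrays and 8.93, 9.26 and 8.87 in the non-carrier arrays. Slc7a3 read 10.15 there, against 9.38 and 9.10, and 9.96, 10.07 and 9.91. In both genes the array thus lay among the non-carrier arrays or above them, as Slc3a2 did at 12.17, while Slc1a4 read 9.56 and was lowest in that array. Without it the run E difference was -0.78 for Slc7a11 and -0.74 for Slc7a3, in place of -0.44 for each. The median change of the 10 genes over all runs was -0.26 without this array. In run B, the non-carrier array that read 9.71 for Slc7a3 was the highest of its group in each of the 10 genes. Leaving out that array of run B gave a median change over all runs of -0.23 and a fitted change of -0.39 for Slc7a11. The differences within run B were not computed without it.

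The level itself depended on the run. With non-carrier serum, Slc7a11 was lowest in run C at 5.03 ± 0.214 (SD, n = 5), followed by A at 5.14 ± 0.084 (SD, n = 3), HB9MNs at 5.39 ± 0.009 (SD, n = 2), the motorneuron run at 5.44 ± 0.060 (SD, n = 4) and D at 6.71 ± 0.296 (SD, n = 4). It was higher in run B at 7.56 ± 0.860, F at 8.43 ± 0.032, the 10-week run at 8.85 ± 0.448 and E at 9.02 ± 0.210 (SD, n = 3 each). Neighbours whose arrays overlapped in this order were C and A, HB9MNs and motorneuron, D and B, B and F, and the 10-week run and E. The step from the motorneuron run to run D had no overlap. From the lowest to the highest run this is 3.98 on the log2 scale, or 15.8-fold, in the deposited intensities. They come with no detection call, so it is not known whether Slc7a11 was above background in the lowest runs, and if not the fold is a lower bound. The run accounted for 96.7% of the variance among the non-carrier arrays.

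Slc7a3 had the same order of runs, from 6.81 ± 0.123 (SD, n = 5) in run C to 9.98 ± 0.083 (SD, n = 3) in run E, a span of 3.17. Slc7a1 and Slc7a5 were also lowest in run C, followed by A, HB9MNs and motorneuron, and were highest in the 10-week run, with spans of 1.76 and 1.74. Slc6a9 spanned 1.77 and Slc1a4 1.57, both from runs labelled with names (HB9MNs and motorneuron) to the 10-week run. The spans were 0.93 for Slc3a2, 0.76 for Slc1a5, 0.71 for Slc38a1 and 0.59 for Slc38a2. In each gene at least 4 of the 8 neighbouring runs overlapped. The median span of the 10 genes was 1.66, against 0.54 over all genes. The order of Slc1a5 differed from the others in that the motorneuron run, among the lowest for Slc7a11, was next to the highest at 8.24 ± 0.064 (SD, n = 4).

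For Slc7a11, differences between the sera lay between -0.09 and 0.14 in C, A, HB9MNs and motorneuron, and between -2.01 and -0.33 in the other 5 runs, which had higher non-carrier levels. Slc3a2, at 11.1 to 11.3 with non-carrier serum in the first 4 runs, differed there by -0.15 to 0.11. In the other 5 runs Slc3a2 differed by -0.64 to -0.20. Slc7a5, at 9.97 to 10.33 in the first 4, differed by -0.16 to 0.11 there and by -1.10 to -0.29 in the other 5. The part of background in the Slc7a11 values was not tested. Slc1a5 did not have this arrangement, with -0.09 in the motorneuron run, next to its highest, and -0.29 in run B, the third from its lowest. Among the 5 runs with a higher Slc7a11 level the difference did not follow the level, since run E had the highest non-carrier level and a difference of -0.44, while run B, with a level below that of F, E and the 10-week run, had the largest. The non-carrier arrays enter both values, so no correlation is given. Run C holds more arrays than the others and was also taken as a first and a second part. Slc7a3 was then higher with carrier serum by 0.26 in the first and by 0.27 in the second, and Slc7a11 by 0.06 and 0.18, whereas Slc1a4 differed by -0.02 and 0.06.

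The other transporters of amino acids did not share this pattern as a list. The 10 genes were chosen on this contrast and are left out of the list, so the gap is partly set by that choice. Of 42 listed genes of the plasma membrane and vesicles, 40 were measured, 14 with a lower and 26 with a higher fitted level. Over all genes, 7629 of 19613 were lower and 11984 higher. The median log2 change was 0.03, close to the 0.02 over all genes, and the values ran from -0.08 (Slc38a3) to 0.11 (Slc6a14), neither of which passed the test. In limma, 1 of the 40 was called, Slc1a2, a glutamate transporter of glia and other cells, at -0.07 (SE 0.018, adjusted p = 0.0307), and 10 had an unadjusted p under 0.05, as did 20.7% of all genes. Slc1a2 had a lower mean in 9 of 9 runs, and its differences, from -0.12 to -0.03, were not largest in run B (-0.08). It was no longer called with no run block or under quantile normalization, or without HB9MNs, A, D, F, the 10-week run or the highest non-carrier array of run B. Close relatives of the described genes read -0.05 (SE 0.033) for the cationic transporter Slc7a2 and -0.04 (SE 0.015, adjusted p = 0.171) for Slc7a6, which also pairs with Slc3a2. Both were chosen after their values were seen, and neither passed the test.

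**Figure D3:**
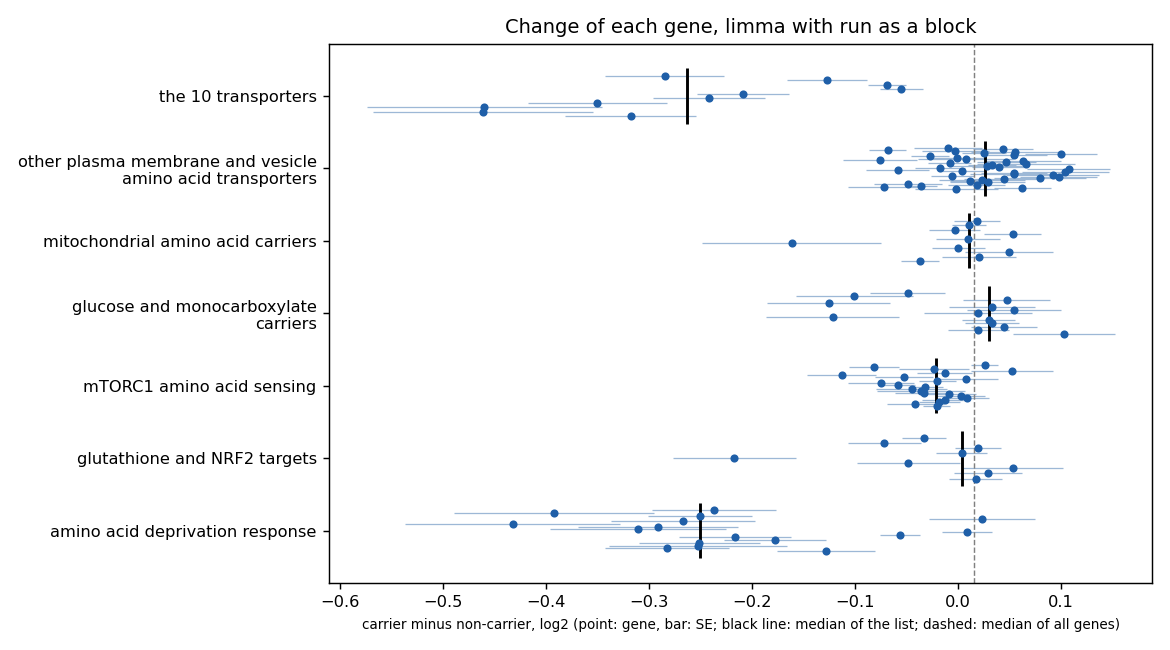
Fitted carrier minus non-carrier log2 change of each gene (point, with its standard error as a bar) for the 10 transporters and 6 lists of other genes, with a black line at the median of the list and a dashed line at the median of all genes (0.02). The 10 transporters and the amino acid deprivation response have medians of -0.26 and -0.25, and the medians of the other 5 lists lie between -0.02 and 0.03. The transporters and the lists were chosen with earlier results of these data known.

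None of the 10 mitochondrial amino acid carriers was called in limma, and none had an unadjusted p under 0.05. None of the 13 measured glucose and monocarboxylate carriers was called, while 2 had an unadjusted p under 0.05 (20.7% of all genes did). These were Slc2a1 at -0.13 (SE 0.060, limma adjusted p = 0.22) and Slc2a9 at 0.10 (SE 0.050, limma adjusted p = 0.228). Of the 13, 4 had a lower and 9 a higher fitted level, against 7629 and 11984 of all genes. Of 9 genes of glutathione synthesis and NRF2 targets, 1 was called, Hmox1, which degrades haem, at -0.22 (SE 0.059, adjusted p = 0.0365). That call was lost without the outlying carrier array of run E and without any one of 6 of the 9 runs. The glutathione synthesis genes Gclc (-0.03, SE 0.021) and Gclm (-0.07, SE 0.035) did not pass. Of 22 measured genes of amino acid sensing by the mTORC1 kinase complex, 1 was called, Nprl3 at -0.06 (SE 0.016, adjusted p = 0.0421), a subunit of the GATOR1 complex, which holds that kinase back. Over all genes 2.33% were called. Of the 22 genes, 17 had a lower and 5 a higher fitted level, with a median log2 change of -0.02. The call of Nprl3 was lost with no run block, with the median of each array subtracted, without any one of runs A, B, D, E or the 10-week run, and without the highest non-carrier array of run B or of the 10-week run. The kinase gene Mtor read -0.02 (SE 0.018, adjusted p = 0.509).

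Of 16 genes of the amino acid deprivation response, 11 were called lower in limma and none higher, against 1.65% and 0.683% of all genes, with a median of -0.25. The list was written with earlier results of these arrays known and is not independent evidence. Chac1, which degrades glutathione, fell by 0.43 on the log2 scale (SE 0.105, adjusted p = 0.0169). The stress factor Atf3 fell by 0.39 (adjusted p = 0.0201), Ddit4, an inhibitor of mTORC1, by 0.31 (adjusted p = 0.0367) and the CHOP gene Ddit3 by 0.29 (adjusted p = 0.0298). Trib3, a pseudokinase that binds ATF4, fell by 0.28 (adjusted p = 0.0057) and the transcription factor gene Cebpg by 0.27 (limma adjusted p = 0.0271). Atf4 itself fell by 0.25 (adjusted p = 0.00329) and Asns, the asparagine synthetase, by 0.24 (adjusted p = 0.0223), all with limma. Atf4 differed most in run B, by -0.65, and by 0.07 in run C, and Chac1 by -1.73 and 0.15. The kinase Eif2ak4 read -0.06 (SE 0.020, adjusted p = 0.0985) and Eif2ak3, the kinase of the unfolded protein response in the same pathway, 0.01 (SE 0.024, adjusted p = 0.855). The list's count of calls was between 2 and 4 when any one of runs B, D, E, F or the 10-week run was left out.

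The 10 genes also varied together among arrays of the same run and serum. Pearson's r was computed for each of the 45 pairs over the 59 arrays after the mean of each run and serum had been subtracted, and is given as a description, since arrays share a run. The median r was 0.68 and 32 pairs had an r over 0.5. The highest were Slc7a1 with Slc7a5 (0.90) and Slc7a3 with Slc3a2 (0.89). The 21 pairs among Slc7a1, Slc7a3, Slc7a5, Slc7a11, Slc3a2, Slc1a4 and Slc6a9 lay between 0.63 and 0.90. Slc38a1 and Slc38a2 went with each other (0.72), and Slc38a1 less with Slc7a5 (0.21) and Slc1a5 (0.02). Without runs B and E, which hold the outlying arrays named above, the median r was 0.51 over all pairs and 0.65 over the 21 pairs. Slc38a1 and Slc7a5 then had an r of -0.20. Among the 21 pairs, Slc6a9 then had an r of 0.22 with Slc7a3, 0.42 with Slc3a2 and 0.49 with Slc7a1. With Slc7a5, Slc7a11 and Slc1a4 it lay between 0.61 and 0.70. No r of other gene pairs is given beside these values.

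**Figure D4:**
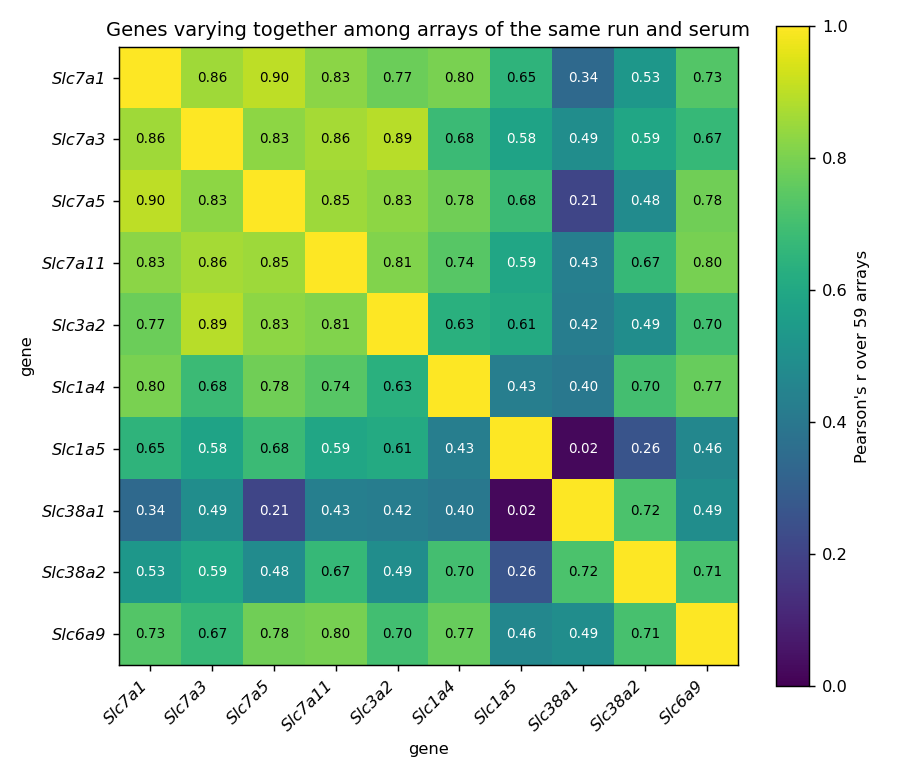
Pearson's r between each pair of the 10 transporter genes (rows and columns) over 59 arrays after the mean of each run and serum was subtracted, from dark for 0 to yellow for 1. The block of Slc7a1, Slc7a3, Slc7a5, Slc7a11, Slc3a2, Slc1a4 and Slc6a9 lies at 0.63 or higher, and the darkest cell is Slc1a5 with Slc38a1 at 0.02.

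The genes whose values were most like those of the transporters were ranked by Pearson's r with the mean of the 10 scaled genes, over 59 arrays after subtraction of the run means, so that the difference between the sera enters the likeness. The first was Aldh18a1, which encodes an enzyme of proline synthesis (0.96). It was followed by Xpot, an exporter of tRNA (0.95), Cth, which makes cysteine from cystathionine (0.95), and the mitochondrial folate enzyme Aldh1l2 (0.95). P2rx3, a channel gated by ATP and known from sensory neurons, had an r of 0.94 and the aminotransferase Gpt2 also 0.94. Pck2 (0.93), the aminoacyl-tRNA synthetases Mars (0.92) and Iars (0.92), and Phf10 (0.92), a subunit of a chromatin remodelling complex, completed the first 10. After the serum means of each run were subtracted as well, their r lay between 0.79 (Mars) and 0.91 (Aldh1l2). By comparison, the 40 other amino acid transporters had a median r of -0.12 and at most 0.48.

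Cell type markers were followed beside these values. The motor neuron genes Mnx1 and Isl1 were measured at 8.35 to 9.21 and at 10.29 to 10.82 on the log2 scale. Deposited intensities never reach 0 and come with no detection call, so these levels do not test the labelled cell type. The summed intensity of 6 measured motor neuron markers was 3390 to 4649 with non-carrier and 3432 to 4797 with carrier serum, and that of 5 neural progenitor markers 2289 to 3371 and 2188 to 3501. The sums were 326 to 516 and 335 to 544 for 4 glial markers, 153.8 to 310.4 and 150.8 to 313.7 for 3 pluripotent cell markers, and 83.5 to 169 and 87.5 to 169 for 2 macrophage markers. The sums were 343 to 642 and 351 to 706 for 4 markers of endothelium and mesenchyme, 116.5 to 225.9 and 122.6 to 265.4 for 3 of endoderm, and 67.0 to 110.2 and 69.3 to 117.7 for 2 of red blood cells. In limma 1 of these 29 markers was called, where 2.33% of all genes were, the choline transporter Slc5a7 of motor neurons, which was higher by 0.15 (SE 0.042, adjusted p = 0.041). Of the 6 motor neuron markers, 3 had a lower and 3 a higher fitted level, with a median change of 0.02, as over all genes. The mean sum over non-carrier arrays of a run was lowest in run A (3428) and highest in HB9MNs (4477) for the motor neuron markers, and both are runs with a low Slc7a11 level. For the neural progenitor markers it was lowest in HB9MNs (2313) and highest in run F (3352), where the Slc7a11 level was high. The part of cell composition in the values above was not tested.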

How the data were processed

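RNA of 59 embryoid body samples was hybridised to Affymetrix mouse exon arrays. The authors prepared the values with RMA (the labels list Affymetrix Expression Console, the paper aroma.affymetrix), averaged the exons of each gene, normalized the arrays jointly and dropped outlying arrays by Grubbs' test. What was deposited is a linear intensity per gene symbol and array. The genome build is not given in the sources used here. The number of arrays limits the precision, and p-values measure the spread between arrays, for which the labels name no donor.

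Log2 intensities were used with a pseudocount of 0 and no filter. Differences between the sera came from limma 3.58.1 (lmFit, eBayes; R 4.3.3), a two-sided test with the run as a block; p-values were adjusted after Benjamini and Hochberg over 19613 genes, with 0.05 as the threshold. In data simulated for this comparison with the 19613 genes, 181 of 200 changed genes and 6 others were called. The simulated noise was drawn independently for each gene and array, whereas genes varied together in the real arrays. These counts therefore do not measure power or false calls in the real data. The transporters and all lists were chosen with earlier results of these data known, so no p is given for the 10 transporters. Apart from them, genes were named if called within their list (up to the 6 largest changes), if among the first 10 in likeness, or if they were Atf4, Ddit3, Atf3, Trib3, Chac1 or Asns. Slc6a14, Slc38a3, Slc7a2, Slc7a6, Slc7a7, Slc2a1, Slc2a9, Gclc, Gclm, Mtor, Eif2ak3, Eif2ak4, Nupr1, Vldlr, Mnx1 and Isl1 were named after their values were seen. Promoter windows are those of RefSeq, with 250 bases before and 50 after the start. Alternatives covered the block, normalization, filters, the variance model, array weights, 4 motor neuron genes as covariates, and runs or arrays left out.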

Additional observations from a re-analysis of the deposited data

Results flagged for a closer look

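Outlying arrays were looked for in the 40 combinations of gene, run and serum with 4 to 10 arrays, and chance marks about 1 in 20 of them. Of these, 3 had an array far from the others. Non-carrier array 1 of the motorneuron run read 7.42 for Slc7a3, below the other 3 arrays, and 9.52 for Slc6a9, above the other 3 arrays. A carrier array of run C read 9.68 for Slc6a9, above the other 5 carrier arrays of that run.

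In HB9MNs, every carrier array lay above every non-carrier array for Slc3a2 (by 0.0623), Slc38a1 (by 0.055) and Slc6a9 (by 0.0735), while every carrier array lay below in 5, 2 and 4 other runs. The difference between the runs was not tested, and HB9MNs has 2 arrays of each serum.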

How the results depend on the processing

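All 10 transporters kept a lower fitted level with carrier serum under each of the 23 alternatives in which they were tested, with a median change between -0.33 and -0.19. Slc7a11 was not tested where genes below the median intensity were left out. The change of Slc7a11 lay between -0.60 and -0.28 and that of Slc7a3 between -0.63 and -0.31. With the shared numbers in the titles as a replicate block, 2.62% of genes were called in place of 2.33% and no other listed count moved by over 1.5 times. Of 8 sets of equal numbers 1 correlated above 0.1, and no pairing was assumed. The correlated values were deviations from means of few arrays, so this check cannot exclude a pairing.

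The share of the 19613 genes that was called was 0 with no run block (805 genes with an unadjusted p under 0.05), 31.2% with the 4 motor neuron genes as covariates and 14.3% with array weights. It was 1.17% without run A, 0.857% without B, 8.16% without C, 0.54% without D, 1.38% without E, 0.831% without F and 0.576% without the 10-week run. For the other amino acid transporters the count of 1 became 0 with no run block, quantile normalization, without HB9MNs, A, D, F or the 10-week run, or without the highest non-carrier array of run B. It became 15 with the covariates, 8 with array weights and 8 without run C.

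For the deprivation response the count of 11 became 0 with no run block, 2 without B, D or F, 3 without E and 4 without the 10-week run. For the mTORC1 list the count of 1 became 0 with no run block, with the array median subtracted, without A, B, D, E or the 10-week run, or without the highest non-carrier array of run B or of the 10-week run. It became 3 with run C parted, with the dimmest genes left out or without run C, 2 with genes below the median left out, with the trended prior or without HB9MNs, 8 with the covariates and 5 with array weights. For the glutathione list the count of 1 became 0 with no run block, with genes below the median left out, without A, B, D, E, F or the 10-week run, or without the outlying carrier array of run E or the highest non-carrier array of run B or the 10-week run. It became 4 with the covariates and 2 with array weights. The glucose list went from 0 to 7 with the covariates, 2 with array weights and 2 without run C, and the mitochondrial list from 0 to 3 with the covariates. The median r between the transporters was 0.77 with only run means subtracted. Alternatives that leave out 1 of these 3 arrays, or runs B and E together, and those of the lists apart from the transporters were chosen after seeing the data. The cause of these shifts was not tested.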

Other observations

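Among the genes whose run-centred values ran against the mean of the 10 transporters, picked after their values were seen, were Calr, a calcium-binding chaperone of the endoplasmic reticulum (Pearson's r = -0.75 across 59 arrays), and Hsd17b7, an enzyme of sterol synthesis (-0.69). With carrier serum, Hsd17b7 was higher by 0.18 on the log2 scale (SE 0.032, limma adjusted p = 0.000865), while Calr read 0.04 (SE 0.019, limma adjusted p = 0.188). The difference between the sera enters this r, so a higher level with carrier serum is partly set by the choice of these genes.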
